A study of Mus musculus with 2 samples.

Results

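The genes described here are 10 genes of Toll-like receptor signalling: the receptors Tlr4, Tlr1, Tlr7 and Tlr9, the receptor homologue Cd180 with the accessory proteins Ly86 and Ly96, the trafficking chaperone Unc93b1, the adaptor Myd88 and the kinase Irak4. They were chosen by name, and they are 10 of 21317 protein-coding mouse genes that could be placed with a strand on the mm10 build. The ChIP-seq experiment, which sequences DNA recovered with an antibody, mapped the transcription factor TCF12, also called HEB, in the mouse B-cell lymphoma line CH12.LX. The line is immortalised and comes from a female donor of strain B10.H-2aH-4bp/Wts. There was 1 group of 2 biological replicates, from separate biosamples of the same line, and the labels name no treatment, genotype change or second condition. A peak belonged to a gene when its summit lay from 10 kb upstream of the gene's 5' end to its 3' end, which is called the gene's window below. The peaks were those of the authors' optimal list, 35848 peaks kept by their irreproducible discovery rate (IDR) step, and each replicate's relaxed list of 300000 peaks gave the value in that replicate. Signal is the peak caller's own value, with no stated scaling. The read depth is unknown, so signals carry no interval for depth, and with 1 condition no test between groups was possible. ChIP-seq shows binding and not expression, so the levels of these genes in CH12.LX were not measured.

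Toll-like receptors recognise microbial molecules and are also active in B cells, where they act beside the antigen receptor. TLR4 with MD-2, the product of Ly96, recognises lipopolysaccharide at the cell surface, and TLR1 pairs with TLR2 to recognise lipopeptides. TLR7 and TLR9 recognise RNA and DNA in endosomes, where the chaperone UNC93B1 brings them. CD180, also called RP105, resembles TLR4 without its signalling domain and pairs with MD-1, the product of Ly86. Most Toll-like receptors signal through the adaptor MyD88, which recruits the kinase IRAK4. TCF12 belongs to the E proteins, which bind E-boxes, short motifs of the form CANNTG. The forms CAGCTG and CACCTG are called the main E-boxes here.

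The sequences that follow are those at the summits of the strongest peaks, at Tlr9 and Unc93b1, and of weaker peaks chosen because they hold an E-box there. Peaks where none of the E-boxes searched was found, such as those of Cd180, Ly86 and Ly96, are not shown. They were read from the mm9 genome (NCBIM37) on the plus strand for the authors' separate mm9 peak list, 50 bp to either side of the summit. Capitals mark the motifs searched, on either strand, so that a CACCTG on the minus strand is printed as CAGGTG and a CATCTG as CAGATG. They are the main E-boxes, the other E-boxes CATCTG and CACGTG, the octamer ATGCAAAT of POU factors, the AP-1 site TGANTCA, the IRF repeat, the RUNX site TGTGGTT, the EBF1 site, and the ETS sites of the PU.1 type GAGGAAGT and of the promoter type CCGGAAGT. The NF-kappaB pattern and a control palindrome were searched and not put in capitals. No marked motifs overlap in these sequences, and a peak with several matches to a motif counted once. The strongest peak, just upstream of Tlr9, held an E-box CATCTG, an octamer, an AP-1 site and a main E-box CACCTG in a row.
Tlr9, 57 bp upstream of the 5' end, chr9:106124822-106124922: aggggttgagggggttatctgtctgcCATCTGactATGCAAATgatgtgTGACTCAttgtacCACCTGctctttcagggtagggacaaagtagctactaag
Tlr9, intron, 585 bp downstream, chr9:106125464-106125564: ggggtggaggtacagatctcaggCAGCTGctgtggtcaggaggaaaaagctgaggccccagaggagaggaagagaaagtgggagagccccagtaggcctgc
Unc93b1, intron, 798 bp downstream, chr19:3935934-3936034: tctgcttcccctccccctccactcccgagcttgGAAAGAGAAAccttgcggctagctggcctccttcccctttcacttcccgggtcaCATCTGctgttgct
Unc93b1, intron, 1418 bp downstream, chr19:3936554-3936654: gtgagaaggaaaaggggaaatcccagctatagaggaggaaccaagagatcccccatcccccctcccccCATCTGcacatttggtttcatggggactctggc
Unc93b1, coding exon, 8374 bp downstream, chr19:3943510-3943610: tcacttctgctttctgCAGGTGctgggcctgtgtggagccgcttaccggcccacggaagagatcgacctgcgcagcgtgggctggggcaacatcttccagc
Tlr7, 9818 bp upstream, chrX:163778258-163778358: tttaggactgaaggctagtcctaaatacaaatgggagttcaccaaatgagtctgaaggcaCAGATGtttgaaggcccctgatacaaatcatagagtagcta
Tlr7, intron, 14590 bp downstream, chrX:163753850-163753950: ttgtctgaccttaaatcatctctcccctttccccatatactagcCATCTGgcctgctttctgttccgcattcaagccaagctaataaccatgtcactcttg

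All 10 genes had at least 1 optimal peak, and 9 of them, all but Tlr7, had one within 1 kb of the 5' end. Of all genes, 57.2% had an optimal peak in the window and 40.6% had one within 1 kb of the 5' end. These shares are given as background only, since the genes were chosen with earlier results of these data known. All 10 also had a peak in the conservative list (57.0% of all genes), with 5 kb upstream in place of 10 kb (54.9%), and by nearest 5' end (56.4%). The same 10 had one among the 35530 strongest peaks of replicate 1 (58.1%) and of replicate 2 (57.9%). With an IDR of 0.01 or less, 9 had one (50.8% of all genes), and 9 had one in the mm9 list (48.8%), Tlr1 being the gene without one in both. The 10 windows held 25 optimal peaks. Tlr4, Tlr1 and Irak4 had 1 each, Tlr9 and Ly96 had 2, Tlr7, Ly86 and Myd88 had 3, Unc93b1 had 4 and Cd180 had 5. Of these, 3 peaks, 2 at Cd180 and 1 at Ly96, overlapped a stronger peak. The 25 peaks therefore form 22 regions without overlap, of which 2 at Myd88 lay end to end. The median was 2.5 peaks per window for the 10 genes and 1 for all genes. Window length did not stand apart, with a median of 26.6 kb (range 14.1 to 83.7) for the 10 genes and 27.4 kb for all.

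**Figure D1:**
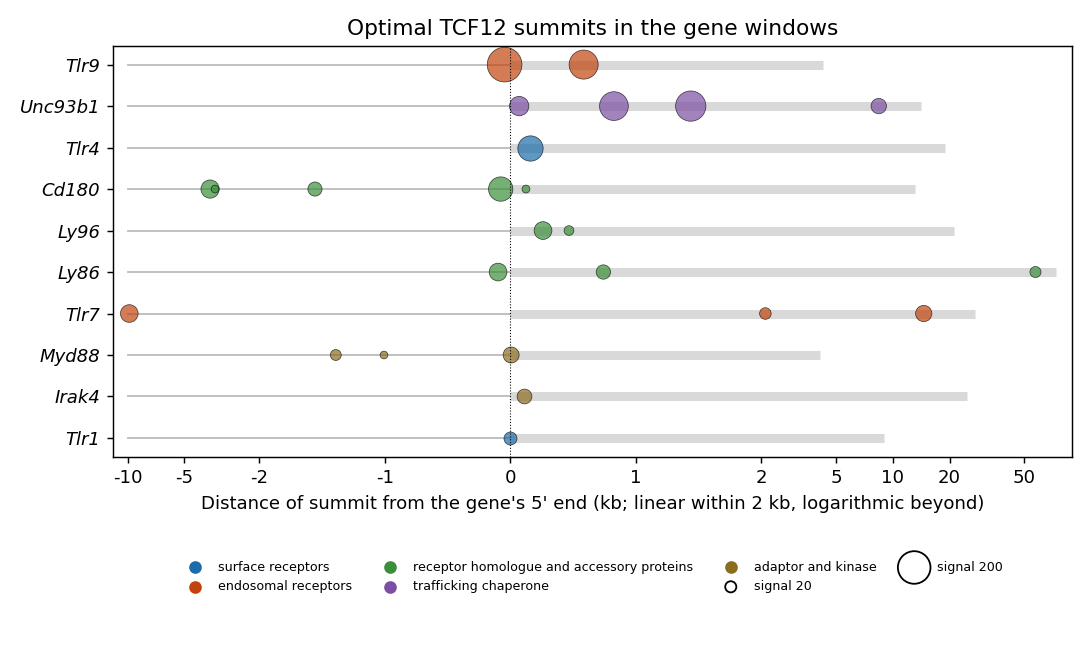
Optimal TCF12 summits in the windows of the 10 genes, by distance from each gene's 5' end in kb (linear within 2 kb of the 5' end, logarithmic beyond). Thick grey bars are gene bodies, thin lines the 10 kb upstream, circle area grows with pooled peak signal and colour gives the gene's role; 14 of the 25 summits lie within 1 kb of the 5' end, and Tlr7 is the gene without one there.

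Of the 25 peaks, 14 had the summit within 1 kb of the gene's own 5' end. The window leaves out distant peaks, so this share is not set against that of all peaks. Without the window, 51 optimal peaks lay nearest to the 5' end of one of the 10 genes, and the same 14 were 27.5% of them, close to the 29.3% of all optimal peaks that lay within 1 kb of a protein-coding 5' end. Summits inside the gene numbered 15 and summits upstream of it 10. For 8 of the 10 genes the strongest peak was the one within 1 kb of the 5' end, the exceptions being Tlr7 and Unc93b1. The same held for 55.2% of all genes with a peak.

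The endosomal DNA receptor gene Tlr9 had the strongest peak of the set. Its signal was 227 pooled, from 142 in replicate 1 and 83.8 in replicate 2, with the summit 45 bp upstream of the 5' end on mm10 chromosome 9 from 106222436 to 106222694. Only 1.40% of all genes with an optimal peak had a stronger one, and the peak ranked 243 among the relaxed peaks of replicate 1 and 432 among those of replicate 2. A second Tlr9 peak, 585 bp downstream on chromosome 9 from 106223105 to 106223281, had a signal of 158, from 91.8 in replicate 1 and 64.1 in replicate 2. Both replicates therefore placed the upstream peak above the one inside the gene. Both peaks were narrower, at 259 and 177 bp, than the 384 bp that was the median of all optimal peaks.

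Unc93b1, the gene of the chaperone that carries TLR7 and TLR9 to endosomes, came next. Its strongest peak lay inside the gene, 1438 bp downstream of the 5' end on chromosome 19 from 3936404 to 3936692. The signal was 172 pooled, from 113 in replicate 1 and 59.1 in replicate 2, and 4.33% of genes with a peak had a stronger one. A neighbouring peak 826 bp downstream had 155 pooled, from 86.9 in replicate 1 and 69.0 in replicate 2, so that the order of the pair was not the same in both replicates. The peak nearest to the 5' end, 71 bp downstream, had only 68.2 pooled, with 41.0 in replicate 1 and 27.5 in replicate 2. The last peak, 8.42 kb downstream, had 41.5. All 4 had the highest IDR score of 1000 and were found among the 35530 strongest peaks of each replicate.

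Tlr7, the endosomal RNA receptor gene, differed from Tlr9 in both position and signal. None of its 3 optimal peaks lay within 1 kb of the 5' end. The relaxed list of replicate 2 had a peak there, 26 bp downstream with 9.23, which ranked 28838, and that of replicate 1 one 68 bp downstream with 4.15, which ranked 247580. The strongest, 9802 bp upstream on chromosome X from 167340184 to 167340567, had 56.2 pooled, from 28.8 in replicate 1 and 27.1 in replicate 2. It was the member peak closest to the upstream edge of the rule, which fell at 10 kb. A peak 14.6 kb downstream, within the gene, had 47.0 pooled, from 29.6 in replicate 1 and 16.8 in replicate 2, and one 2.10 kb downstream had 22.1, from 15.2 and 9.89. Replicate 1 therefore put the downstream peak marginally above the upstream one, and replicate 2 the reverse. Of genes with a peak, 52.9% had a stronger one.

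The surface receptor genes had 1 peak each, at the 5' end. At Tlr4, the lipopolysaccharide receptor gene, the peak lay 156 bp downstream on chromosome 4 from 66827515 to 66827898. Its signal was 119 pooled, from 79.1 in replicate 1 and 44.5 in replicate 2, and 12.8% of genes with a peak had a stronger one. At Tlr1 the summit lay 3 bp upstream of the 5' end on chromosome 5 from 64933411 to 64933794, with 28.5 pooled, from 17.3 in replicate 1 and 12.1 in replicate 2. This was the weakest of the 10 strongest peaks, with 87.6% of genes with a peak above it, and its IDR score of 791 was below the 830 that corresponds to an IDR of 0.01. Tlr1 was also the only gene of the set without a peak in the mm9 list, whose lowest signal was 30.0 on its own scale. Its mm10 upstream sequence, from the RefSeq promoter table on the build GRCm38.p6, is shown up to the start of the gene span because it held the main E-box CACCTG, on the strand opposite to the printed one.
Tlr1, 208 bases, minus strand, chr5:64933601-64933808: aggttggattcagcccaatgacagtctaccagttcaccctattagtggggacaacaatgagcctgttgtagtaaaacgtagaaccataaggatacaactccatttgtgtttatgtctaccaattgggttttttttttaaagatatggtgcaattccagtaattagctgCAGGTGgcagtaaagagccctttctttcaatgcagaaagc
The table's 5' end of Tlr1 lies 42 bp inside the gene span used for the windows. Counted from it, the E-box started at -82 bp, the summit lay at -45 bp and an ETS site GAGGAAGT started at -23 bp.

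**Figure D2:**
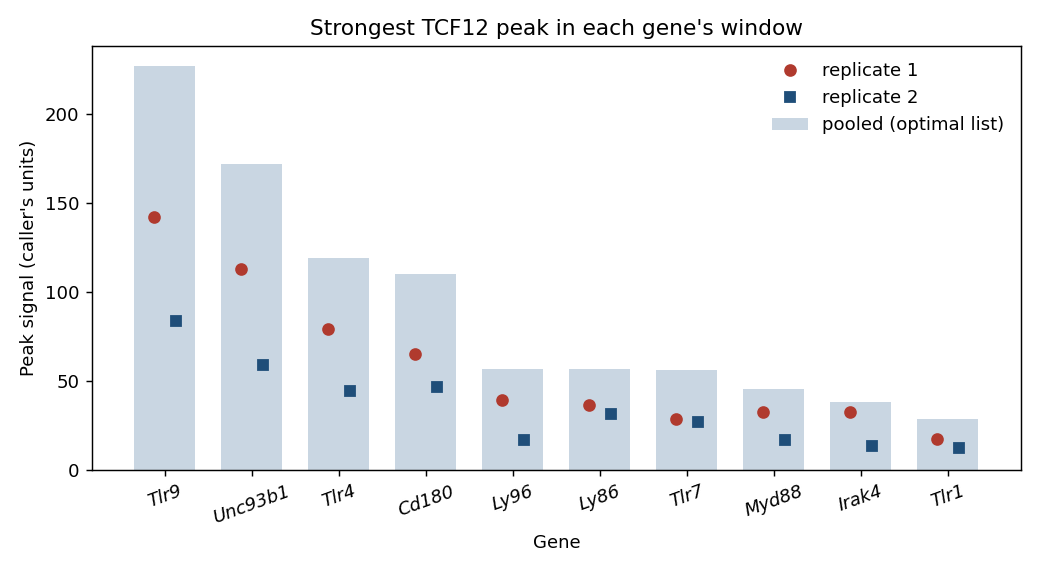
Signal of the strongest optimal peak in each gene's window, in the caller's units. Bars are the authors' pooled value, circles replicate 1 and squares replicate 2; Tlr9, Unc93b1, Tlr4 and Cd180 lie at 110 or above and the other genes at 56.9 or below, and replicate 1 is the higher in every gene shown.

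Cd180 and the accessory protein genes Ly86 and Ly96 all had a peak within 1 kb of the 5' end. Cd180, the RP105 gene, had its strongest peak 76 bp upstream on chromosome 13 from 102693279 to 102693662, with 110 pooled, from 65.2 in replicate 1 and 46.6 in replicate 2. A second region 3.65 kb upstream had 60.0, from 31.2 and 29.7 in replicates 1 and 2, and another 1.56 kb upstream had 34.5, from 22.6 and 10.7. The remaining 2 Cd180 peaks, with signals of 8.07 and 7.62, overlapped the first and second. Replicate 1 had separate relaxed peaks there, with 16.1 at 116 bp downstream and 8.28 at -3377 bp, while replicate 2 had none apart from those of the stronger peaks. Counted as regions, Cd180 had 1.30 per 10 kb of window, below the 2.13 of Myd88, the 1.65 of Unc93b1 and the 1.40 of Tlr9. The Myd88 value includes 2 weak regions nearer to the 5' end of the neighbouring gene Acaa1a, described below. These lay end to end without a gap, and counting them as 1 region would lower the Myd88 value.

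Ly86, the MD-1 gene, had its strongest peak 97 bp upstream on chromosome 13 from 37345056 to 37345439. The signal was 56.5 pooled, from 36.7 in replicate 1 and 31.4 in replicate 2. A peak 742 bp downstream had 35.6 pooled, but 29.1 in replicate 1 and 5.38 in replicate 2, and it was absent from the authors' conservative list and from the 35530 strongest peaks of replicate 2. A weak peak 57.2 kb downstream, within this longest of the 10 genes, had 19.7, from 9.87 in replicate 1 and 8.99 in replicate 2. Ly96, the MD-2 gene, had its strongest peak 261 bp downstream on chromosome 1 from 16688525 to 16688908, with 56.9 pooled, from 39.1 in replicate 1 and 16.7 in replicate 2. Its second peak, with 14.4, overlapped the first. The partner genes Tlr4 and Cd180 thus had signals of 119 and 110, above the 56.9 and 56.5 of the genes whose products they pair with, in each replicate as well as in the pooled data.

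The adaptor and kinase genes had peaks of moderate signal. At Myd88 the strongest peak lay 7 bp downstream of the 5' end on chromosome 9 from 119339819 to 119340202, with 45.3 pooled, from 32.5 in replicate 1 and 16.7 in replicate 2. The other 2 Myd88 peaks, 1.01 and 1.39 kb upstream, lay 4 and 380 bp from the 5' end of Acaa1a, a peroxisomal thiolase gene on the opposite strand, and nearer to it than to the 5' end of Myd88. They had pooled signals of 7.69 and 19.1, and both were absent from the conservative list. At Irak4 the only peak lay 113 bp downstream on chromosome 15 from 94543534 to 94543917, with 38.1 pooled, from 32.3 in replicate 1 and 13.1 in replicate 2. The 5' end of Pus7l, a gene of the pseudouridine synthase family, lay 79 bp from that of Irak4 on the opposite strand, so this peak lay close to both 5' ends. Of genes with a peak, 65.8% had a stronger one than Myd88 and 75.5% than Irak4.

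Each of the 25 peaks overlapped a relaxed peak in both replicates by at least 1 bp, as did 34817 of all 35848 optimal peaks. The optimal list was made from peaks called in these replicates, so such overlap was largely set by the selection. Of the 25 peaks, 21 (84.0%) overlapped one of the 35530 strongest peaks of both, the number that the conservative list holds. Of all optimal peaks, 71.0% did. Replicate 1 had the higher signal at 23 of the 25 peaks (92.0%), and at 85.7% of the 34817 optimal peaks found in both. In these counts and in the ratio that follows, the 3 peaks that overlap a stronger one took that peak's replicate values. The 25 are therefore not separate measurements. The median ratio of replicate 1 to replicate 2 was 1.49 (interquartile range 1.17 to 1.91) for the 25 peaks and 1.66 (1.21 to 2.34) for all optimal peaks. Across the 22 distinct pairs of replicate values, Spearman's rho was 0.829, a description across peaks of shared libraries. It was 0.697 across all optimal peaks found in both replicates, where repeated pairs were kept, so the 2 values are not strictly alike.

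Peaks at 2 genes stood away from that ratio. The Ly86 peak 742 bp downstream had a ratio of 5.41, which 2.22% of all optimal peaks exceeded. The Myd88 peaks 1.39 and 1.01 kb upstream had ratios of 0.227 and 0.527, both higher in replicate 2, with 17.4 and 7.52 there and 3.96 in replicate 1. A value of 3.96 is close to the lowest signal of the relaxed list of replicate 1, 3.86, and both peaks met the same relaxed peak there. Ratios below 0.5 were found at 1.36% of all optimal peaks.

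**Figure D3:**
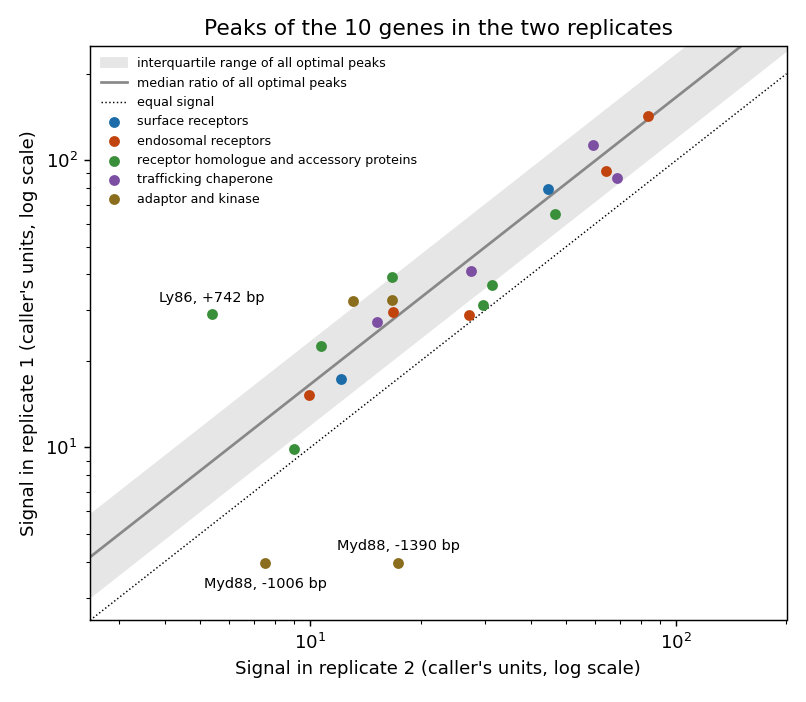
Signal of replicate 1 (vertical) against replicate 2 (horizontal) at the 22 distinct pairs of relaxed peaks that the optimal peaks of the 10 genes overlap, both on log scales in the caller's units and coloured by role. The grey line and band are the median ratio of all optimal peaks, 1.66, and its interquartile range; the labelled peaks of Ly86 and Myd88 are those with a ratio above 5 or below 1.

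Set among all 12183 genes with an optimal peak, the 10 genes ran from the lower part of the range of signal to its upper tail. Tlr9 lay in that tail, with 1.40% of these genes above it. Their strongest peaks had a median of 56.7 (range 28.5 to 227), and those of all genes with a peak had a median of 58.7. Of the 10 genes 4, Tlr9, Unc93b1, Tlr4 and Cd180, lay above that median. Ly96, Ly86 and Tlr7 lay just below it between 56.2 and 56.9, and their order was not the same in both replicates. Myd88, Irak4 and Tlr1 lay lower. The signal of single peaks had a median of 45.3 for the 25 peaks and 35.0 for all optimal peaks.

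**Figure D4:**
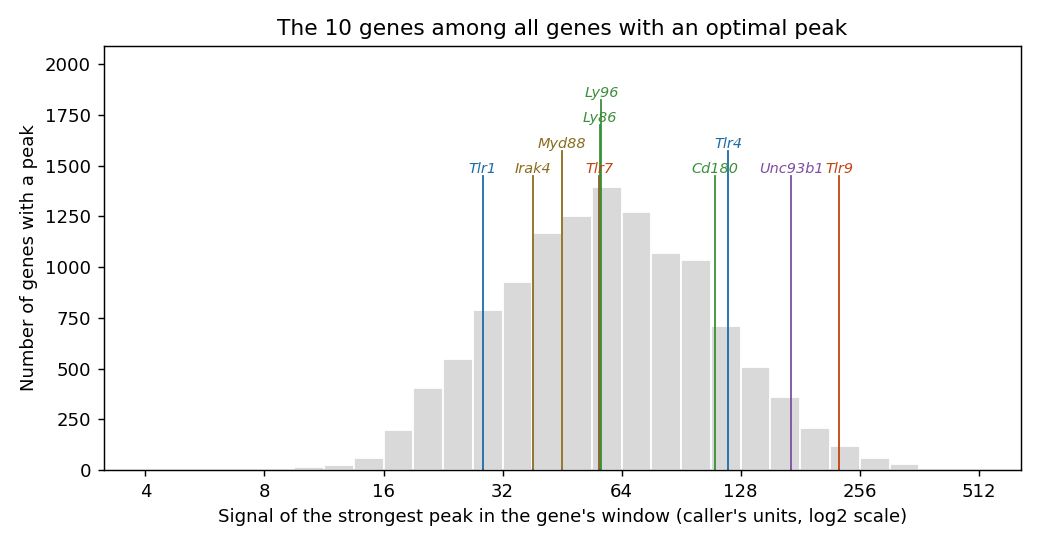
Number of genes by the signal of the strongest optimal peak in the window, on a log2 scale in the caller's units, for all 12183 genes with a peak. Vertical lines mark the 10 genes, coloured by role; 6 of them lie below the median of 58.7, and Tlr9 lies in the upper tail.

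Main E-boxes were searched around the mm9 summits, where those within 50 bp belonged to Tlr9 and Unc93b1. Tlr1 had no mm9 peak, and its main E-box on mm10, shown above, is not in these counts. On mm9, 17 peaks lay in the windows of 9 of the genes, and 4 of them (23.5%) held CAGCTG or CACCTG no farther than 50 bp from the summit. Of all 23572 mm9 peaks on chromosomes 1 to 19 and X, 31.0% did. Split by position, 3 of the 11 peaks within 1 kb of a 5' end held one, against 14.4% of all such mm9 peaks, and 1 of the other 6, against 39.6%. The other 6 include a Myd88 peak 1396 bp downstream of the 5' end of the mm9 annotation, which differs from that on mm10. Its sequence held the IRF repeat that started at -40 bp from the mm10 5' end. The share of peaks with a main E-box moved with the distance allowed. Within 25 bp it was 2 of 17 (18.3% of all mm9 peaks), within 100 bp, where the Tlr4 peak was added, 5 of 17 (43.9% of all) and over the whole peak 7 of 17 (52.4% of all). At Tlr9 the upstream peak held a CACCTG that started 12 bp after the summit, and the intron peak a CAGCTG that started at -27 bp. At Unc93b1 the peak at the 5' end held CAGCTG, in ggaagtcccaacCAGCTGctggtgcccaga at chr19:3935199-3935228 on the plus strand, and the peak in a coding exon 8.37 kb downstream held CACCTG on the minus strand. The strong intron peaks of Unc93b1, with mm9 signals of 232 and 213, held neither main E-box within 50 bp, and nor did the Tlr4, Tlr7, Cd180, Ly86, Ly96, Irak4 and Myd88 peaks. Each of these 2 intron peaks of Unc93b1 held the E-box CATCTG, as did both mm9 peaks of Tlr7 and the upstream peak of Tlr9. CATCTG lay at 5 of the 17 peaks and at 11.4% of all mm9 peaks.

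Other motifs were few. The PU.1 type of ETS site GAGGAAGT lay at the Tlr4 peak, 21 bp from the summit, and the promoter type CCGGAAGT lay at the Ly96 peak, each at 1 of the 17 peaks and at 3.13% and 2.94% of all. The IRF repeat lay at the Unc93b1 peak 798 bp downstream and at the Myd88 peak 1396 bp downstream on the mm9 annotation. These were 2 of 17 peaks, against 2.44% of all. The octamer ATGCAAAT and the AP-1 site TGANTCA were found at the upstream peak of Tlr9 alone, against 2.25% and 7.64% of all peaks. The EBF1 site, the RUNX site TGTGGTT and the E-box CACGTG were at none of the 17, against 1.15%, 4.72% and 3.56% of all. The loose NF-kappaB pattern lay at 3 of 17, against 28.6% of all, and the control palindrome CGATCG at 1, the Irak4 peak, against 0.407%. In all 13 motifs were searched, and with 17 peaks no single count is read as a difference. The GC content of these windows at the summits had a median of 55.4% (41.6 to 67.3) in the 17 peaks and 56.4% in all mm9 peaks.

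The RefSeq promoter table held 6 of the 10 genes, Tlr1, Tlr9, Myd88, Ly86, Cd180 and Irak4, and 2 of these, Tlr1 and Tlr9, had a main E-box between 250 bp upstream and 50 bp downstream of the 5' end. Of all 32851 promoter sequences of the table, 32.9% had one. In the mm10 promoter of Tlr9 the CACCTG started 45 bp upstream of the 5' end, the same position as the mm10 summit. The AP-1 site started 58 bp, the octamer 72 bp and CATCTG 81 bp upstream, in the same order as in the mm9 sequence shown above, and a GAGGAAGT on the minus strand started 10 bp downstream. The octamer was found in 1.74%, GAGGAAGT in 3.20%, the AP-1 site in 7.81% and CATCTG in 17.2% of all promoter sequences. The Myd88 promoter held CATCTG at -180 bp and the IRF repeat, found in 3.44% of all promoter sequences, at -40 bp. The Ly86 and Cd180 promoters held none of the 13 motifs, although both had a summit within them.

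The rule on windows left out further peaks that lay nearer to the 5' ends of these genes than to those of any other protein-coding gene. There were 11 such peaks for Cd180, 11 for Ly86, 3 for Tlr1, 2 for Tlr7 and 1 for Tlr9. Overlapping peaks are counted singly here, and the 2 Tlr7 peaks overlapped each other. So did a pair at Cd180, 184 kb downstream, and pairs at Ly86 near 89.1 and -14.1 kb. The Cd180 peaks included the strongest, 205 kb downstream of its 5' end with a signal of 191. It had 102 in replicate 1 and 96.9 in replicate 2. Another lay 180 kb downstream with 174, from 99.2 in replicate 1 and 75.8 in replicate 2. Both exceed the 110 of the peak at the Cd180 5' end in the pooled data and in each replicate. The nearest other protein-coding 5' ends were those of Mast4, a kinase gene, 641552 bp downstream and Pik3r1, the gene of a phosphoinositide kinase subunit, 925330 bp upstream. Distance is all that ties these peaks to Cd180. For Ly86 the peaks just outside the upstream edge lay 12.3 and 12.1 kb upstream, with signals of 42.0 and 22.4, and overlapped each other. Another lay 54.5 kb upstream with 64.9, above the 56.5 of the strongest Ly86 peak in the window, from 46.5 in replicate 1 and 15.4 in replicate 2, where the window peak was higher with 31.4. For Tlr1, peaks 48.4 and 47.2 kb downstream both had at least 40.1, above the 28.5 at its 5' end in the pooled data. They were also above it in each replicate, with 22.8 and 19.9 in replicate 1 and 28.2 and 20.5 in replicate 2. The Tlr9 peak outside the window lay 7.88 kb downstream of the 5' end, past the 3' end of this short gene, with a signal of 41.2.

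The relaxed lists held a median of 11.5 peaks per window for the 10 genes in replicate 1 and 10.5 in replicate 2, and 6 for all genes in each. Of those that overlapped no optimal peak, the strongest had 16.0 in replicate 1 and 14.0 in replicate 2, both at Cd180. The 14.0 was above the replicate 2 values of the optimal peaks at Irak4, 13.1, and Tlr1, 12.1. It was also above those of weaker optimal peaks at Cd180, Tlr7, Ly86 and Myd88, from 5.38 to 10.7. In replicate 1 the 16.0 was above the 15.2 of a Tlr7 peak, the 9.87 of a Ly86 peak and the 3.96 of the upstream Myd88 peaks. At Tlr1, Myd88 and Ly96 no relaxed peak apart from the optimal peaks exceeded 7.18 in replicate 1 or 3.42 in replicate 2.

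Other genes of the pathway, 45 taken from a list by role, had an optimal peak in 39 cases, 86.7%, and one within 1 kb of the 5' end in 32. The background is the same 57.2% and 40.6% of all genes. Of the other 8 Toll-like receptor genes, 5 (62.5%) had a peak, the lowest share of the 7 roles, with strongest signals of 34.3 at Tlr3, 26.4 at Tlr5 and Tlr13, 22.3 at Tlr2 and 21.2 at Tlr6, the last at a peak nearer to the 5' end of Fam114a1. Tlr2 alone of the 8 had a peak within 1 kb of its 5' end. Tlr8, Tlr11 and Tlr12 had none. All of these signals lay below those of Tlr9, Tlr4 and Tlr7, and the 28.5 of Tlr1 lay among them.

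Among genes of ligand binding and trafficking, 4 of 5 had a peak. Cnpy3, a chaperone gene for Toll-like receptor folding, had the strongest with 266, above that of Tlr9, from 163 in replicate 1 and 104 in replicate 2. Hsp90b1, the gene of the chaperone gp96, had 117. Slc15a4, the gene of an endolysosomal transporter, had 108, at a peak nearer to the 5' end of Glt1d1, and Lbp, the lipopolysaccharide-binding protein gene, had none. All 4 other adaptor genes had a peak near the 5' end, with 66.6 at Ticam2, 64.7 at Ticam1 and 56.7 at Sarm1. With Myd88 included, the adaptor genes ran from 45.3 to 66.6.

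At the IRAK and ubiquitin step 6 of 7 genes had a peak. Irak2 had 225, at a peak nearer to the 5' end of Tatdn2, the ubiquitin ligase gene Peli1 had 208 at its own 5' end, and the ubiquitin-conjugating enzyme gene Ube2n had 105. Irak1, the kinase gene that acts next to Irak4, had no optimal peak and no relaxed peak in either replicate. All 9 downstream kinase genes and their partners had a peak within 1 kb of the 5' end, led by Tab1 with 155, Chuk with 89.8 and Tbk1 with 81.6.

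Of 6 transcription factor genes of the pathway, 5 had a peak. The NF-kappaB genes Nfkb1 and Rel had 219 and 143, in 15 and 9 peaks. Irf7 had 116, at a peak nearer to the 5' end of Cdhr5. Irf3 had no optimal peak, but its strongest relaxed peak had 9.25 in replicate 1 and 12.7 in replicate 2. All 6 negative regulator genes had a peak, led by 205 at Nfkbia, the gene of an NF-kappaB inhibitor, 108 at the adaptor gene Pik3ap1 and 102 at Tnfaip3, the gene of the deubiquitinase A20.

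**Figure D5:**
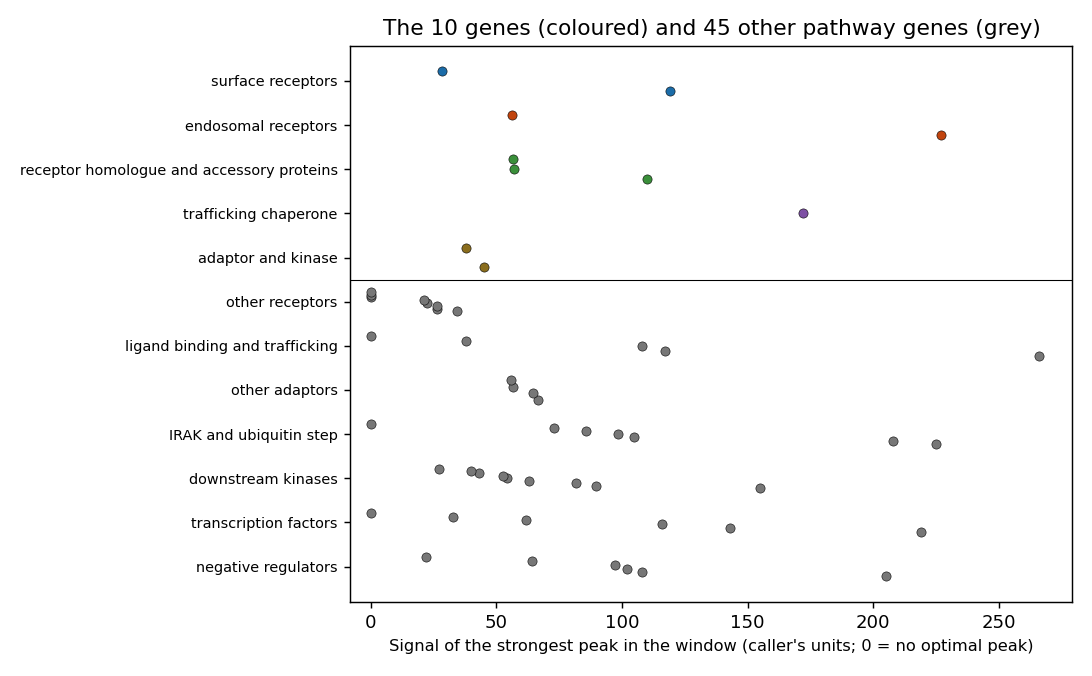
Signal of the strongest optimal peak per gene, in the caller's units, by role, with the 10 genes above the line in colour and 45 other genes of the pathway below it in grey. A value of 0 stands for no optimal peak; the 8 other receptor genes reach at most 34.3, and Cnpy3, among ligand binding and trafficking, lies highest at 266.

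As a check of the label, peaks were counted at lineage marker genes. The B-cell markers Cd79a, Cd79b, Ms4a1 and Pax5 each had an optimal peak and one within 1 kb of the 5' end. The background is again 57.2% of all genes with an optimal peak and 40.6% with one within 1 kb of the 5' end. Of 4 T-cell markers 3 had a peak and 1 had one near the 5' end, with a highest signal of 37.8 at Cd3e. Cd3d and Cd3g shared their strongest peak, with 35.1, so these markers do not stand for separate peaks. Of 4 myeloid markers 3 had a peak and 1 had one near the 5' end. Their highest signal was 97.9 in the window of Cd68, at a peak 85 bp from the 5' end of Eif4a1. Itgam had 88.7 at -3864 bp, nearest to its own 5' end, which was above the 78.9 of the B-cell marker Ms4a1. The B-cell markers Cd79a, Cd79b and Pax5 had 143, 209 and 271. A peak is not expression, so these counts do not show which of the genes the cells transcribe.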

How the data were processed

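The authors called peaks on mm10 for each replicate and for both pooled, with a control alignment that is not analysed here, and passed these through IDR to make the optimal and the conservative list, per the notes deposited with the files. The mm9 list came from the mm9 alignments of both replicates. For aligner, caller and versions the sources used here state nothing. The deposited signal is the caller's own value and is compared only inside 1 list. The deposited score is the scaled IDR score. Python 3.11.15 with pandas 2.3.3 and NumPy 2.4.6 was used, and counting was tested on simulated data.

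Gene spans came from RefSeq GRCm38.p6. Of 21631 protein-coding genes, 21317 (98.5%) received a strand, 17274 from the RefSeq promoter table and the others from GENCODE vM1 by symbol or synonym, since the span table has none. Of 14731 genes with both, 14692 had the same strand. Sequence and exons needed the mm9 genome, and no coordinate was converted. Of overlapping relaxed peaks, the strongest gave the replicate's value. Stretches in annotated UTRs were not printed beyond 30 bases.

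The genes and lists were chosen with earlier results of these data known. All 10 genes are named with all peaks, of the pathway list up to 3 genes per role with the strongest peak and up to 3 without one, and neighbours whose 5' end is nearer to a named peak. Tlr2, Tlr6, Pus7l, Mast4 and Pik3r1 were named after their values were seen. An item of the marker lists is not reported here.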

Additional observations from a re-analysis of the deposited data

How the results depend on the processing

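Having a peak depended on the list or threshold for Tlr1 and on the distance allowed for Tlr7. All 10 genes kept one in the conservative list, with 5 kb upstream, by nearest 5' end and in each replicate alone, where the background share of genes ran from 54.9% to 58.1%. Tlr1 lost its peak at an IDR of 0.01 and in the mm9 list, and Tlr7 within 1 kb of the 5' end, leaving 9. The number of peaks was 14 within 1 kb of the 5' end and 51 by nearest 5' end, against 25, and 24 to 28 with either replicate left out. Counts of other pathway genes ran from 32 to 39, with 37 to 39 when either replicate was left out. Main E-boxes lay at 2 of the 17 mm9 peaks within 25 bp and at 7 over the whole peak, against 4, where all peaks gave 18.3% and 52.4%. The median replicate ratio ran from 1.49 to 1.69. The conservative list held 27 peaks in the windows, more than the optimal list, and so was not a subset of it. Among single genes, Myd88 had 1 peak there, Tlr7 and Ly86 had 4 each, Ly96 had 3 and Unc93b1 had 5. In replicate 2 alone, Tlr4 had 3. No paired analysis was possible because there is 1 group. The unknown depth limits every signal, and 2 replicates give no estimate of error for single peaks.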
